A study of Mus musculus with 5 samples.

Results

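The far cis-interactions described here are the 2-kb windows of mouse chromosome 7 that lie more than 10 Mb from the Cebpa viewpoint on its centromeric side. They were chosen by position alone, as windows starting below position 25118001 (mm10). At least 1 of 4 4C-seq libraries listed 1523 such windows, of 12222 listed windows on chromosome 7 and 29870 in the genome. The stretch they come from, chr7:3000001-25118000, holds 11059 windows over 22.1 Mb and begins where the sequenced part of the chromosome begins.

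The study followed the chromatin contacts of the Cebpa promoter through adipocyte differentiation by 4C-seq. This assay cuts and religates crosslinked chromatin, then amplifies and sequences the fragments joined to a chosen viewpoint. The cells were of 1 mouse embryo line, 3T3-L1, grown in DMEM with fetal bovine serum and penicillin-streptomycin. Preadipocytes (3T3-L1-PRE, 2 libraries) were compared with adipocytes (3T3-L1-AD, 2 libraries). The 3T3-L1-AD cells had received IBMX, dexamethasone and insulin (MDI) after confluence, followed by medium with insulin, and were taken at day 7. The titles of these libraries name mRNA-Seq, but their molecule is given as genomic DNA. Nothing in the labels says whether replicates were separate cultures, so each p-value measures the spread between these samples. An inguinal adipose tissue sample was not analysed here.

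Cebpa encodes a transcription factor that drives the later steps of adipocyte differentiation. Contacts of a promoter become rarer with distance along its chromosome, and contacts over many megabases are as a rule scattered over large domains rather than fixed at single sites. The centromeric arm end of mouse chromosome 7 carries large clusters of vomeronasal receptor genes, along with gene-dense segments of other families.

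The reading primer ends in the DpnII site of the viewpoint and matched chromosome 7 at 1 place, chr7:35117558-35117577 on the plus strand. It is shown because all distances are counted from its DpnII site, which lies 1719 bp before the annotated start of Cebpa. Capitals mark that site.
Reading primer: atctggcccagagagcGATC

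All windows were read from the deposited read counts. Over the genome they summed to 9453610 reads for replicate 1 of 3T3-L1-PRE and 16888137 for its replicate 2, and to 6535263 and 10173531 for the corresponding 3T3-L1-AD libraries. A deposited file leaves out every window whose normalized value is 1 or less. The lowest listed counts of the region were therefore 13 and 11 reads in 3T3-L1-PRE, against only 2 in each 3T3-L1-AD library. An unlisted window was taken as 0, yet it may hold up to 12, 10, 1 and 1 reads in these libraries, in the same order. For this reason the main counts are also given with a common minimum of 13 reads. Numbers per usable end, adjacent windows and shares outside 1 Mb are given for all listed windows only. PCR reads that carry no molecular identifiers were counted, so the intervals given cover counting error only.

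The second 3T3-L1-AD library stood apart from the other libraries in 1 respect. Of its 209 windows in the region, 122 (58.4%) had fewer than 13 reads, against 0 in 3T3-L1-PRE replicate 1, 34 (2.91%) in its replicate 2 and 9 (8.82%) in 3T3-L1-AD replicate 1. Of those 122 windows, 103 (84.4%) coincided with windows of 3T3-L1-PRE replicate 2, with a median of 1079 reads there, whereas all windows of that library in the region had a median of 255 reads. The share was similar on chromosome 7, with 956 of 1087 such windows (87.95%), and lower in the genome, with 1528 of 3352 (45.6%). Windows with 13 or more reads in 3T3-L1-AD replicate 2 coincided with 3T3-L1-PRE replicate 2 at 62.4% on chromosome 7 and 20.9% in the genome. Only 11 of the 122 coincided with windows of 3T3-L1-PRE replicate 1 and 8 with those of 3T3-L1-AD replicate 1, while 16 were in no other library. The pattern held in reverse: of the 149 windows with at least 1000 reads in 3T3-L1-PRE replicate 2, 3T3-L1-AD replicate 2 listed 62, of which 59 had fewer than 13 reads. Of the 122 windows with at least 1000 reads in 3T3-L1-PRE replicate 1, it listed 5 with so few reads. Among the 87 windows with 13 or more reads in 3T3-L1-AD replicate 2, 35 (40.2%) were listed in 3T3-L1-PRE replicate 2, with a median of 194 reads. The cause of this pairing was not tested. It is thus not known whether these low counts are contacts of 3T3-L1-AD chromatin, and values that rest on them carry this doubt. Values with the common minimum are free of these low counts.

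The far region was sparsely listed in all 4 libraries, and more sparsely in 3T3-L1-AD. Replicates of 3T3-L1-PRE listed 412 and 1168 windows, which is 3.73% and 10.6% of the windows of the region. The 3T3-L1-AD replicates listed 102 and 209 windows, 0.922% and 1.89%. The 2 states did not overlap, but the 3T3-L1-PRE replicates differed from each other by more than the closest libraries of different states. The lists of the whole of chromosome 7 did not overlap either. They held 3588 and 9470 windows in 3T3-L1-PRE, against 1043 and 2048 in 3T3-L1-AD. Over the genome the lists overlapped, with 6470 and 19095 windows in 3T3-L1-PRE, against 2780 and 6618 in 3T3-L1-AD. Closer to the viewpoint, between 1 and 10 Mb on the same side, the density was higher in each library, with 45.4 and 129 listed windows per Mb in 3T3-L1-PRE against 18.6 and 52.8 in the far region. In 3T3-L1-AD it was 9.22 and 21.4 against 4.61 and 9.45.

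On the log2 scale, the mean number of listed windows in 3T3-L1-AD over that in 3T3-L1-PRE was -2.35 (p = 0.3333 in an exact, two-sided permutation test, which can give no smaller p with 2 libraries a state). With at least 13 reads, the numbers were 412 and 1134 in 3T3-L1-PRE, against 93 and 87 in 3T3-L1-AD, and the log2 ratio was -3.10 (p = 0.3333, same exact test). The size of the ratio rested on single libraries. Leaving out 3T3-L1-PRE replicate 1 gave -2.91 and leaving out its replicate 2 gave -1.41, while leaving out 3T3-L1-AD replicate 1 gave -1.92 and leaving out its replicate 2 gave -2.95.

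Reads were distributed differently over these windows in each library. Its reads summed to 297604 and 501279 for 3T3-L1-PRE, against 125967 and 197190 for 3T3-L1-AD. For 3T3-L1-PRE the median listed window had 415.5 reads (quartiles 87 and 1129.5) in replicate 1 and 255 (65 and 652.25) in replicate 2. For 3T3-L1-AD it had 384.5 (63.5 and 1461.75) in replicate 1 and 4 (2 and 343) in replicate 2. Among windows with at least 13 reads, the highest 10% by reads took up 36.3% and 34.1% of their total in 3T3-L1-PRE, against 51.6% and 37.15% in 3T3-L1-AD. The single highest window held 1.63% and 0.580% of the region's reads in 3T3-L1-PRE, against 14.0% and 6.81% in the shorter lists of 3T3-L1-AD, where 1 window is a larger part of the list. Windows with at least 1000 reads numbered 122 and 149 in 3T3-L1-PRE, against 35 and 48 in 3T3-L1-AD. In the deposited statistics of single libraries the lowest q-value of the region was 1 in all 4, with lowest p-values of 0.432, 0.6865, 0.1249 and 0.316 in the order above.

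Listed windows often stood alone. Joining neighbours gave 343 and 760 separate stretches in the 3T3-L1-PRE replicates, against 91 and 180 in the 3T3-L1-AD replicates. There were 69 and 408 pairs of adjacent windows in 3T3-L1-PRE, against 11 and 29 in 3T3-L1-AD, of which 18, 29, 6 and 11 pairs had identical read counts in both windows.

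The share of the whole chromosome 7 signal that came from the far region was lower in 3T3-L1-AD. Of all listed cis windows, 11.5% (95% Wilson interval 10.5% to 12.6%) and 12.3% (11.69% to 13.01%) lay in the region in 3T3-L1-PRE. The shares were 9.78% (8.12% to 11.7%) and 10.2% (8.97% to 11.6%) in 3T3-L1-AD. The difference of the means was -1.92 percentage points (two-sided exact permutation test, p = 0.3333), while the intervals of the states overlapped. Of the cis reads, 3.88% (3.87% to 3.90%) and 3.65% (3.64% to 3.66%) lay in the region in 3T3-L1-PRE, against 2.57% (2.56% to 2.58%) and 2.61% (2.60% to 2.62%) in 3T3-L1-AD. That difference was -1.18 points (p = 0.3333, same exact test), and neither the states nor their intervals overlapped. At 13 or more reads the window shares were 11.5% and 12.2% in 3T3-L1-PRE, against 9.55% and 9.05% in 3T3-L1-AD, a difference of -2.52 points.

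The direction of these shares depended on what they were taken of. The 1 Mb to each side of the viewpoint took 72.9% and 73.1% of the cis total for 3T3-L1-PRE, against 82.4% and 84.1% for 3T3-L1-AD. When only cis reads outside that 1 Mb were counted, the region held 14.3% and 13.6% of them in 3T3-L1-PRE, against 14.6% and 16.4% in 3T3-L1-AD, a difference of 1.58 points in the opposite direction. Of the cis windows outside 1 Mb, it held 14.5% and 13.6% in 3T3-L1-PRE, against 16.9% and 15.1% in 3T3-L1-AD, a difference of 1.99 points. Both reversed differences again had p = 0.3333 in the exact permutation test. The smaller share of the region in 3T3-L1-AD was thus a share of a total in which the first megabase weighed more.

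Along the region, 3 bins of 1 Mb held more listed windows than the other 20 together in each library. They begin at 16, 19 and 24 Mb and were the 3 fullest bins in each of the 4 libraries, also at a minimum of 13 reads. In the bin from 16 Mb, 68 and 210 windows were listed in 3T3-L1-PRE, against 21 and 48 in 3T3-L1-AD. The bin from 19 Mb had 76 and 208 in 3T3-L1-PRE, against 24 and 34 in 3T3-L1-AD. The bin from 24 Mb had 74 and 173 in 3T3-L1-PRE, against 16 and 32 in 3T3-L1-AD. Together they held 52.9% and 50.6% of the region's listed windows in 3T3-L1-PRE, against 59.8% and 54.5% in 3T3-L1-AD, on 13.6% of its windows. The next fullest bin had 31, 88, 7 and 12 windows in the 4 libraries. With at least 13 reads, the counts were 68, 206, 17 and 21 in the bin from 16 Mb, 76, 205, 23 and 14 in that from 19 Mb, and 74, 168, 14 and 12 in that from 24 Mb. The order of the states was kept in each of these bins, and the next fullest bin then had 31, 84, 7 and 6.

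Reads followed the same bins, with an exception in 3T3-L1-AD replicate 2. The 3 bins held 56.9% and 56.7% of the region's reads in 3T3-L1-PRE, against 72.2% and 47.4% in 3T3-L1-AD. The bin from 16 Mb had 44982 and 104026 reads in 3T3-L1-PRE, against 40436 and 51960 in 3T3-L1-AD. The bin from 19 Mb had 64436 and 96463 in 3T3-L1-PRE, against 37385 and 23778 in 3T3-L1-AD, and the bin from 24 Mb 59904 and 83677 against 13170 and 17649. In 3T3-L1-AD replicate 2 the bin from 13 Mb, with 19284 reads, ranked above that from 24 Mb, and 13420 of its reads came from 1 window.

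The ends of the region were unlike. The bin from 3 Mb, next to the unsequenced centromere, had 21 and 54 listed windows in 3T3-L1-PRE, against 4 and 12 in 3T3-L1-AD, with 20910, 22642, 6176 and 490 reads. Its windows with 13 or more reads numbered 21, 53, 3 and 3. The last bin, from 25 Mb, covers only 59 windows up to the limit of the region and had 13 and 26 listed windows in 3T3-L1-PRE, against 0 and 7 in 3T3-L1-AD, with 8018, 15959, 0 and 10728 reads. At the limit itself, the last listed window inside began at 25116001, with 132 and 303 reads in 3T3-L1-PRE, and the first outside at 25126001, with 232 and 284. Neither was listed in 3T3-L1-AD.

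Some bins had no listed window. They were those from 8, 9, 21 and 22 Mb in 3T3-L1-PRE replicate 1, those from 8, 21 and 22 Mb in 3T3-L1-PRE replicate 2, those from 7, 8, 9, 15, 20, 21, 22 and 25 Mb in 3T3-L1-AD replicate 1, and those from 8, 9, 20 and 22 Mb in 3T3-L1-AD replicate 2. The bins from 8 and 22 Mb were empty in all 4 libraries. In the bin from 9 Mb replicate 2 of 3T3-L1-PRE gave the only listed window, with 12 reads, and in that from 21 Mb replicate 2 of 3T3-L1-AD gave the only one, with 2, so both bins were empty at 13 or more reads.

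Whether a window can be listed depends on its sequence. The authors discarded fragment ends that were not unique, so the ends that could be counted were found in the mm10 sequence. A usable end here runs from a DpnII site to an NlaIII site and occurs once in the genome over the 50 bases compared. Of 76531 fragment ends with both sites in the region, 36421 (47.6%) were usable. In 5 bins, those from 8, 9, 20, 21 and 22 Mb, under 10% of the ends were usable, from 2.12% to 8.54%, and these bins together had 2 and 3 listed windows in 3T3-L1-PRE, against 0 and 1 in 3T3-L1-AD. In the bins from 16, 19 and 24 Mb, 83.9% of the ends were usable. By this definition 2 listed windows of 3T3-L1-PRE replicate 2 and 2 of 3T3-L1-AD replicate 2 had no usable end. A bin without listed windows at this end of the chromosome therefore often had little sequence that the assay could report.

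Per usable end, the 3 full bins together were fuller than the other 20 together. They had 23.1% of the region's usable ends. Per 1000 usable ends they had 25.9 and 70.3 listed windows in 3T3-L1-PRE, against 7.25 and 13.6 in 3T3-L1-AD. The other 20 bins had 6.93 and 20.6 in 3T3-L1-PRE, against 1.46 and 3.39 in 3T3-L1-AD. The ratio of these densities was 3.74 and 3.41 in 3T3-L1-PRE, against 4.95 and 4.00 in 3T3-L1-AD. The short last bin, from 25 Mb, had 36.2, 72.4, 0 and 19.5 per 1000 usable ends and so was above the 3 bins together in 3 libraries. These bins were chosen by their counts, so the ratio is a description without a test. They also held 126 of 487 protein-coding genes assigned to a bin, and their GC content was 48.3%, 50.8% and 48.0%, against a mean of 42.4% over the region.

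Over the 22 whole bins, the number of listed windows rose with the number of usable ends in each library, with a Spearman rank correlation of 0.903 and 0.934 in 3T3-L1-PRE, against 0.880 and 0.782 in 3T3-L1-AD. The rank correlation with GC content was 0.815 and 0.811 in 3T3-L1-PRE, against 0.597 and 0.792 in 3T3-L1-AD, and with the number of protein-coding genes 0.538 and 0.570 in 3T3-L1-PRE, against 0.520 and 0.491 in 3T3-L1-AD. Between libraries, the rank correlation of the window numbers was 0.962 for the 3T3-L1-PRE replicates and 0.756 for the 3T3-L1-AD replicates, and from 0.807 to 0.903 for the 4 pairs of different states. These values describe bins of the same chromosome, which share the usable sequence, GC content and library depth, and no p is attached to them. Pearson correlations of the window numbers were 0.979 for the 3T3-L1-PRE replicates, 0.933 for those of 3T3-L1-AD and from 0.9315 to 0.962 between states. For reads they were 0.955, 0.850 and from 0.683 to 0.929.

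The listed windows differed from the usable but unlisted ones in annotation and in usable sequence. They had a mean of 6.18 and 6.31 usable ends in 3T3-L1-PRE and of 6.54 in both 3T3-L1-AD libraries, against 4.25 in the unlisted windows, and the features below were not separated from this. Windows with a usable end that no library listed, 6352 in number, had a median GC content of 41.9%, and 39.5% of them overlapped a protein-coding gene. Listed windows had medians of 47.4% and 47.1% GC in 3T3-L1-PRE, against 47.45% and 47.55% in 3T3-L1-AD, and 67.2%, 65.2%, 64.7% and 64.1% of them overlapped a protein-coding gene. Their median distance to the nearest transcription start was 7.76 and 8.27 kb for 3T3-L1-PRE and 8.10 and 7.67 kb for 3T3-L1-AD, compared with 14.9 kb for the unlisted windows. The 4 libraries were alike in these features, whatever their state. At 13 or more reads, 67.2% and 65.3% of the windows of 3T3-L1-PRE and 65.6% and 62.1% of those of 3T3-L1-AD overlapped a protein-coding gene.

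The listed windows per 1-Mb bin were compared between the states over 2286 bins of the genome with edgeR. In the region 19 bins were tested, all 19 had a lower fitted value in 3T3-L1-AD, and 5 passed an FDR of 0.01, all lower in 3T3-L1-AD. Over all bins tested, 2.36% passed. The 5 bins included the 3 fullest, with log2 fold changes of -1.22 (standard error 0.3025, adjusted p = 0.00298) from 16 Mb, -1.48 (0.309, adjusted p = 0.000169) from 19 Mb and -1.62 (0.320, adjusted p = 5.79e-05) from 24 Mb. The bin from 4 Mb had 22 and 88 windows in 3T3-L1-PRE, against 6 and 12 in 3T3-L1-AD, a log2 fold change of -1.77 (standard error 0.415, adjusted p = 0.00136). The bin from 6 Mb had 31 and 67 in 3T3-L1-PRE, against 1 and 5 in 3T3-L1-AD, a log2 fold change of -3.27 (standard error 0.537, adjusted p = 6.98e-07). In each of the 5 bins both 3T3-L1-AD libraries were below both 3T3-L1-PRE libraries. The listed windows of the whole of chromosome 7 had the same order (3588 and 9470 against 1043 and 2048). As the bins were called for being lower, this order is no further support.

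Whether bins were called depended on the scale, the minimum of reads and the tool. The median log2 fold change was -0.22 over all bins, -1.70 over chromosome 7 and -1.62 over the region, so the region lay near its own chromosome. With the bins of chromosome 7 alone, edgeR called 0 bins of the region (0.0% of the 139 bins tested), and the median over the region was 0.05. There 1 bin of the region had an unadjusted p under 0.05, beside 5 of all 139. With at least 13 reads it called 0 of 19 (0.0% of all bins tested), with 9 at an unadjusted p under 0.05, beside 113 of all 2120. The fold changes were of similar size there: all 19 bins were lower in 3T3-L1-AD, the median over the region was -1.83, and the bins from 4, 6, 16, 19 and 24 Mb had -1.78, -3.19, -1.41, -1.49 and -1.83. With all listed windows, DESeq2 called 0 of 19 (0.0437% of all bins tested), with 5 at an unadjusted p under 0.05, beside 53 of all 2286. All 19 were again lower in 3T3-L1-AD, and the same 5 bins had -1.54, -3.175, -1.03, -1.28 and -1.44. Leaving out 1 library at a time left 4 bins called without 3T3-L1-PRE replicate 1 (those from 4, 6, 19 and 24 Mb), 1 without 3T3-L1-PRE replicate 2 (from 6 Mb), 3 without 3T3-L1-AD replicate 1 (from 6, 19 and 24 Mb) and 4 without 3T3-L1-AD replicate 2 (from 6, 16, 19 and 24 Mb). Of all bins tested, 1.92%, 0.345%, 1.5% and 1.54% were called in these 4 fits. The bin from 6 Mb was called with any 1 library left out.

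By reads per 1-Mb bin, edgeR called 0 of the 19 bins (0.0875% of all bins tested) and DESeq2 called 0 (0.131%). With each, 1 of the 19 had an unadjusted p under 0.05. Of all 2286 bins, 99 did with edgeR and 405 with DESeq2. With at least 13 reads edgeR again called 0 (0.0% of all 2120 bins tested). Then 1 of the 19 and 284 of all bins had an unadjusted p under 0.05. The direction of the fitted values changed with the scale and the minimum: they were lower in 3T3-L1-AD in 8 of the 19 bins with TMM, in 14 with at least 13 reads, in 15 after thinning with that minimum and in 16 with library totals. In reads, the bin from 6 Mb had 15840 and 22296 in 3T3-L1-PRE, against 378 and 5985 in 3T3-L1-AD, and its log2 fold change was -0.81 with a standard error of 2.605 (edgeR adjusted p = 0.931).

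Most far windows were listed in a single library, as on the whole of chromosome 7. Of the 1523 windows, 1189 (78.1%) were listed in 1 library, 301 in 2 libraries, 32 in 3 and 1 in all 4. The share listed in 1 library was 77.8% for chromosome 7 and 87.2% for the genome. Counting only 13 or more reads, 1235 were listed in 1 library, 220 in 2, 17 in 3 and 0 in 4. The 3T3-L1-PRE replicates shared 165 windows, which is 40.05% of the windows of replicate 1 and 14.1% of the windows of replicate 2. Those of 3T3-L1-AD shared 14, which is 13.7% and 6.70%. On all of chromosome 7 the 3T3-L1-PRE shares were 44.4% and 16.8% and those of 3T3-L1-AD 43.05% and 21.9%, and in the genome 26.4% and 8.955%, and 24.9% and 10.4%. These wider shares include the windows close to the viewpoint, so they are not at like distance. With the minimum of 13 reads, 161 shared windows were left for 3T3-L1-PRE and 4 for 3T3-L1-AD. Across states, replicate 2 of 3T3-L1-PRE and replicate 2 of 3T3-L1-AD shared 138 windows (11.8% and 66.03%), and 35 (3.09% and 40.2%) at 13 or more reads. Of these 138 windows, 103 had fewer than 13 reads in 3T3-L1-AD replicate 2 and carry the doubt above. The 3T3-L1-AD replicates shared fewer windows with each other than each shared with 3T3-L1-PRE replicate 2, which listed the most windows.

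Windows listed in both replicates, the reliable interaction sites of a state, lay mostly in the bins from 16, 19 and 24 Mb. These bins held 107 of the 165 sites of 3T3-L1-PRE (64.8%) and 13 of the 14 of 3T3-L1-AD (92.9%). Of all listed windows they held 52.9% and 50.6% in the 3T3-L1-PRE replicates, against 59.8% and 54.55% in those of 3T3-L1-AD. The bins were chosen as the fullest, and an excess of sites over that fullness was not tested. The larger read count of the replicates was a median of 3.89 times the smaller for 3T3-L1-PRE and 30.05 times for 3T3-L1-AD, and differed over 10-fold at 44 and at 10 sites. In 8 of the 14 sites of 3T3-L1-AD replicate 2 had fewer than 13 reads, and 6 of these 8 were listed in 3T3-L1-PRE replicate 2, so these sites carry the same doubt. Of the 33 windows listed in 3 or 4 libraries, 27 (81.8%) lay in the 3 bins, and 16 of the 33 were listed in fewer than 3 libraries at 13 or more reads.

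The only window listed in all 4 libraries, chr7:19086001-19088000, overlaps an exon of Dmpk, which encodes a protein kinase of muscle. It had 28 and 609 reads in 3T3-L1-PRE, against 89 and 2 in 3T3-L1-AD, so that replicates of each state differed by more than 10-fold, and the 2 reads are of the doubtful kind. It lies 16.0 Mb from the viewpoint. The 4 windows with the highest lower count of the 3T3-L1-PRE replicates are given in that order. That from 19458001, over an exon of the microtubule-affinity kinase gene Mark4, had 2088 and 1469 reads in 3T3-L1-PRE, against 0 and 2 in 3T3-L1-AD. The next, from 18716001 and 0.09 kb from the pregnancy-specific glycoprotein gene Psg22, had 2175 and 1446 in 3T3-L1-PRE and was not listed in 3T3-L1-AD. The window from 16072001, over an exon of Zfp541, had 2582 and 1423 reads in 3T3-L1-PRE, against 0 and 2 in 3T3-L1-AD. That from 16008001, in an intron of Bicra, which encodes a subunit of a chromatin remodelling complex, had 2053 and 1296 in 3T3-L1-PRE and was not listed in 3T3-L1-AD. As they were chosen by their 3T3-L1-PRE counts, their excess over 3T3-L1-AD is no evidence of a difference.

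Among the sites of 3T3-L1-AD, the window from 19884001, in an intron of Ceacam19 of the carcinoembryonic antigen family, had 1835 and 3931 reads in the replicates. It was listed in neither 3T3-L1-PRE library. The window from 16074001, in an intron of Zfp541 next to the one above, had 640 and 219 reads, and that from 19762001, over an exon of the cell adhesion gene Bcam, had 51 and 70. Both were also unlisted in 3T3-L1-PRE. The window from 24944001, over an exon of Gm4881, had 441 and 4638 reads in 3T3-L1-AD and 1730 and 0 in 3T3-L1-PRE. These were the 4 sites of 3T3-L1-AD that remained at 13 or more reads, and 3 of them were listed in no 3T3-L1-PRE library. They were chosen by their 3T3-L1-AD counts, so their excess is no evidence of a difference either. Of the 165 sites of 3T3-L1-PRE, 141 (85.45%) were in no 3T3-L1-AD library, against 50.9% of such sites on chromosome 7 and 53.0% in the genome. Of the 14 of 3T3-L1-AD, 4 (28.6%) were in no 3T3-L1-PRE library, against 3.79% and 32.0%. The shares on chromosome 7 and in the genome include the 1 Mb to each side of the viewpoint. That stretch held 20.65% and 9.55% of the listed cis windows in 3T3-L1-PRE, against 42.3% and 32.6% in 3T3-L1-AD. The comparison is thus not at like distance, and sites of other far stretches were not compared.

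The highest windows of single libraries were rarely high elsewhere. In 3T3-L1-PRE replicate 1 they were the window from 24436001, in an intron of Irgc1, with 4863 reads and 75 in replicate 2, and that from 3710001, over an exon of the immune receptor gene Pirb, with 4796 reads and no listing in another library. In 3T3-L1-PRE replicate 2 they were the window from 5090001, over an exon of the endocytosis gene Epn1, with 2909 reads, and that from 24654001, 12.01 kb from Tex101, with 2633 reads. Both were listed in 3T3-L1-AD replicate 2 with 3 and 5 reads, and in neither replicate 1. The highest window of 3T3-L1-AD replicate 1, from 19110001 over an exon of Gm4969, had 17628 reads and 87 in 3T3-L1-PRE replicate 1. Its next, from 16634001 and 19.01 kb from Arhgap35, had 12471 reads, with 308 and 250 in 3T3-L1-PRE. In 3T3-L1-AD replicate 2 they were the window from 13004001, over exons of Trim28, a co-repressor of transcription, and Zbtb45, with 13420 reads and no other listing, and that from 16732001, 4.41 kb from Ap2s1, which encodes an adaptor subunit of clathrin-coated vesicles, with 12166 reads and 363 in 3T3-L1-PRE replicate 2. No window was among the 2 highest of more than 1 library.

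Of the 1523 windows, 334 were listed in at least 2 libraries and were tested among 3819 such windows of the genome. In reads per window, edgeR called 0 (0.0% of all windows tested), with 21 at an unadjusted p under 0.05, beside 188 of all 3819. Its lowest adjusted p in the region was 0.659, and most of its standard errors there were several log2 units. Its 0 calls thus do not show that the states were alike. DESeq2 called 78 of the 334, 75 lower and 3 higher in 3T3-L1-AD, which is 23.4% beside 20.6% of all windows tested. Of the 75, 71 were among 141 windows listed in both 3T3-L1-PRE replicates and in no 3T3-L1-AD library, and the 3 were among 4 windows with the reverse listing. Such windows were tested because of the state in which they had reads, so that choice fixed the direction of these calls. These calls are therefore no evidence of a difference. The other lower calls, 4 in number, were among 33 windows listed in 3 or 4 libraries. None of the 156 windows listed in 1 library of each state was called. The 3 higher ones were the windows from 16074001 and 19884001 and, named after its values were seen, that from 16310001 over an exon of the apoptosis gene Bbc3, with 5 and 8 reads in 3T3-L1-AD. As the 3T3-L1-PRE files can leave out windows with 12 and 10 reads, a difference cannot be read from the last of these. The window from 19884001 had the smallest adjusted p of DESeq2, 1.96e-05, and an edgeR adjusted p of 0.659. As it was tested only because of its 3T3-L1-AD counts, its small p is no evidence of a difference. The calls at single windows thus differed between the tools, and the share called by DESeq2 in the region was near that in the genome.

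Fragment ends of 5 of the named windows are shown, so that the sites behind the shared and the highest counts can be found in the genome. Each runs 5′ to 3′ from the DpnII site to the nearest NlaIII site, both in capitals, is unique in the genome over the bases compared, and was read from GRCm38. A window holds several such ends, and the deposited counts do not tell which of them gave the reads.
Dmpk window, all 4 libraries, chr7:19086671-19086904, plus strand: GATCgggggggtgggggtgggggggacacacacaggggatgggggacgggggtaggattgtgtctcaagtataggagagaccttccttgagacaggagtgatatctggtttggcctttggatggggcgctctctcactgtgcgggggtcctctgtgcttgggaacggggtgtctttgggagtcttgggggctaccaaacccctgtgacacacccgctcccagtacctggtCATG
Ceacam19 window, both 3T3-L1-AD replicates, chr7:19884354-19884606, minus strand: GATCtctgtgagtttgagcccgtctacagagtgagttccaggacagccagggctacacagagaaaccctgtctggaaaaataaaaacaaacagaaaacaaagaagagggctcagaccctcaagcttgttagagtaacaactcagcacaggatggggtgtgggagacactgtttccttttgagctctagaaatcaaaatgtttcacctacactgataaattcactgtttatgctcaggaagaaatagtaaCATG
Window near Psg22, both 3T3-L1-PRE replicates, chr7:18716535-18716805, minus strand: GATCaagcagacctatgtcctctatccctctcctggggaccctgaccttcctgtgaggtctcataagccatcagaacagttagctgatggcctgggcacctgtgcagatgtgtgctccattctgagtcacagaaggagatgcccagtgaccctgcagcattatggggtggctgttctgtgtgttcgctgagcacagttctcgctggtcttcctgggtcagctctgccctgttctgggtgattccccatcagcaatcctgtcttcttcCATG
Bicra window, both 3T3-L1-PRE replicates, chr7:16008146-16008382, minus strand: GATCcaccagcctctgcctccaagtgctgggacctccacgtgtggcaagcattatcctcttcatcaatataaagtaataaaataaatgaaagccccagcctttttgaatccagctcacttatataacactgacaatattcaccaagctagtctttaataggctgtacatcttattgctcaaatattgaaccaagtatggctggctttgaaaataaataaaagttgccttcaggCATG
Window near Arhgap35, high in 3T3-L1-AD replicate 1, chr7:16634043-16634325, minus strand: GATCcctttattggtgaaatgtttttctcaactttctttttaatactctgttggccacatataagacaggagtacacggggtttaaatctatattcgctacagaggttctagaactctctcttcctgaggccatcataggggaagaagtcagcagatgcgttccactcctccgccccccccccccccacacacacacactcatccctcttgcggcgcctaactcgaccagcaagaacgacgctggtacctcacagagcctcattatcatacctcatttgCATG

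Gene groups of the region differed in how much of their sequence was listed. Windows overlapping any of 488 protein-coding genes were listed at 6.95% and 19.1% in 3T3-L1-PRE, against 1.66% and 3.36% in 3T3-L1-AD. All other windows were listed at 1.91% and 5.75% in 3T3-L1-PRE, against 0.509% and 1.06% in 3T3-L1-AD. The whole region gave 3.73% and 10.6% in 3T3-L1-PRE, against 0.922% and 1.89% in 3T3-L1-AD, as above. These shares are descriptions, and no gene group was tested against another.

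Vomeronasal receptor genes, which encode pheromone receptors, form the largest group, with 130 genes over 790 windows. Of these windows 7 and 22 were listed in 3T3-L1-PRE (0.886% and 2.78%) and 4 and 3 in 3T3-L1-AD (0.506% and 0.380%), below the share of the whole region in each library. At 13 or more reads there were 7, 21, 4 and 0. A listed window overlapped 23 of the 130 genes. In the 12 bins with at least 5 vomeronasal receptor genes, 31.3% of the fragment ends were usable, and there were 4.47 and 15.4 listed windows per 1000 usable ends in 3T3-L1-PRE, against 1.62 and 2.62 in 3T3-L1-AD. The region as a whole had 11.3 and 32.1 in 3T3-L1-PRE, against 2.80 and 5.74 in 3T3-L1-AD. That mean is raised by the bins from 16, 19 and 24 Mb. The other 8 bins had 9.045 and 25.1 in 3T3-L1-PRE, against 1.33 and 4.06 in 3T3-L1-AD, so the vomeronasal bins were below them in 3 libraries and above them in 3T3-L1-AD replicate 1. Genes of the Obox family of oocyte homeobox genes, 7 genes over 141 windows of which 75 had a usable end, had no listed window in any library.

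By all listed windows, zinc finger genes were above the regional share in all 4 libraries, but above the share of all windows over protein-coding genes in only 3 of them. Of 349 windows over 51 genes, 31 and 81 were listed in 3T3-L1-PRE (8.88% and 23.2%) and 9 and 10 in 3T3-L1-AD (2.58% and 2.87%). At 13 or more reads there were 31, 81, 8 and 6. The exception, 3T3-L1-AD replicate 2, then turned, with 6 of 349 windows against 54 of 3984 over protein-coding genes. A listed window overlapped 39 of the genes. Zfp541 had the most listed windows over the libraries together, 2 and 8 in 3T3-L1-PRE, against 1 and 3 in 3T3-L1-AD.

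Pregnancy-specific glycoproteins and their relatives of the carcinoembryonic antigen family, 25 genes over 194 windows, had 7 and 21 listed windows in 3T3-L1-PRE (3.61% and 10.8%) and 4 and 7 in 3T3-L1-AD (2.06% and 3.61%). For 3T3-L1-PRE these shares were close to those of the region, and for 3T3-L1-AD they were higher. Ceacam19 had 0 and 3 listed windows in 3T3-L1-PRE, against 2 and 2 in 3T3-L1-AD. Genes of the NLR family of innate immune sensors, 7 genes over 200 windows, had 10 and 16 in 3T3-L1-PRE (5.00% and 8.00%) and 1 and 1 in 3T3-L1-AD (0.50% in both). The sulfotransferase genes of the Sult2a cluster, 8 genes over 192 windows, had 4 and 8 in 3T3-L1-PRE (2.08% and 4.17%) and 2 and 1 in 3T3-L1-AD (1.04% and 0.521%). With at least 13 reads the antigen family had 7, 20, 4 and 4, the NLR family 10, 14, 0 and 1, and the Sult2a cluster 4, 8, 2 and 0.

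Most genes of 3 smaller groups lie in the bins from 19 and 24 Mb. The apolipoprotein genes Apoe, Apoc1, Apoc2 and Apoc4, whose products carry lipids in plasma, cover 11 windows, of which 1 and 9 were listed in 3T3-L1-PRE, against 0 and 1 in 3T3-L1-AD. The 1 in 3T3-L1-AD replicate 2 lay over Apoe and had 2 reads. The NF-kB genes Relb and Bcl3 cover 20 windows, of which 6 and 11 were listed in 3T3-L1-PRE, against 0 and 1 in 3T3-L1-AD. Relb alone had 3995 and 2888 reads in 3T3-L1-PRE, against 0 and 390 in 3T3-L1-AD. The DNA repair genes Ercc1, Ercc2, Xrcc1 and Lig1 cover 46 windows, of which 7 and 15 were listed in 3T3-L1-PRE, against 0 and 4 in 3T3-L1-AD. Lig1, a DNA ligase gene, had 1001 and 900 reads in 3T3-L1-PRE, against 0 and 5475 in 3T3-L1-AD. That 3T3-L1-AD replicate 1 listed no window in these 3 groups has little weight, as it listed only 1.66% of the windows over protein-coding genes.

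The imprinted genes Peg3, Usp29 and Zim1, which are expressed from the paternal or the maternal copy alone, cover 147 windows. Of these, 6 and 17 were listed in 3T3-L1-PRE (4.08% and 11.6%), near the shares of the whole region, 3.73% and 10.6%. In 3T3-L1-AD 0 and 1 were listed (0.0% and 0.68%), the last with 2 reads, against 0.922% and 1.89% of the whole region. Gipr, the receptor of an incretin hormone, Slc1a5, a glutamine transporter, Hif3a, a hypoxia-inducible factor, and Dmpk form a last group of mixed function. They cover 39 windows, of which 3 and 13 were listed in 3T3-L1-PRE, against 5 and 1 in 3T3-L1-AD. Dmpk had 2 of the 5 windows of 3T3-L1-AD replicate 1. Gipr had 0 and 3257 reads in 3T3-L1-PRE, against 3609 and 0 in 3T3-L1-AD, so that 1 library of each state listed it. With at least 13 reads the apolipoprotein genes had 1, 9, 0 and 0 windows, the NF-kB genes 6, 11, 0 and 1, the DNA repair genes 7, 13, 0 and 3, the imprinted genes 6, 17, 0 and 0, and the last group 3, 12, 5 and 0.

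The region was compared with a stretch of equal length at equal distances on the telomeric side, chr7:45118001-67236000, which held 2026 of the listed windows. That stretch had 520 and 1491 listed windows in 3T3-L1-PRE, against 110 and 242 in 3T3-L1-AD, more than the centromeric region in each library. The ratio of the region to the stretch was 0.792 and 0.783 in 3T3-L1-PRE, against 0.927 and 0.864 in 3T3-L1-AD. The mean log2 ratio was -0.25 (two-sided exact sign-flip permutation test over 4 libraries, p = 0.13, the smallest it can give), and -0.23 at 13 or more reads. In reads the ratio was 0.803, 0.761 and 0.711 in the first 3 libraries and 1.05 in 3T3-L1-AD replicate 2, a mean log2 ratio of -0.29 (p = 0.25, same exact test).

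Counted per usable fragment end, the order of the sides turned. Of the fragment ends of the telomeric stretch 75.7% were usable, 53708 of 70967, against 47.6% in the region. Per 1000 usable ends the region had 11.3 and 32.1 listed windows in 3T3-L1-PRE, against 2.80 and 5.74 in 3T3-L1-AD. The telomeric stretch had 9.68 and 27.8 in 3T3-L1-PRE, against 2.05 and 4.51 in 3T3-L1-AD. The mean log2 ratio was then 0.31 for windows and 0.28 for reads, above 0 in all 4 libraries for both (p = 0.13, same exact test). The size of this depended on the unit. Per window with a usable end, 7871 in the region and 10279 in the stretch, the mean log2 ratio was 0.13 for windows, above 0 in all 4 libraries (p = 0.13, same exact test). For reads it was 0.10, above 0 in 2 libraries (p = 0.75 in that exact test). The region listed fewer windows than the opposite side, but not fewer for the sequence that could be counted.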

How the data were processed

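4C-seq reads of 2 3T3-L1-PRE and 2 3T3-L1-AD libraries were demultiplexed and trimmed by the authors with pipe4C, mapped to mm10 with bowtie2 and counted in windows of 2000 bp with r3Cseq, without pooling replicates. The deposited files give counts, the number of reads per window. The authors also deposited a normalized signal named RPMs, listed only above 1, and, per window, a p-value with its q-value. Only the counts were compared.

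Windows of the region were selected by start position, and unlisted windows were set to 0. Bins of 1 Mb were numbered by their first megabase. The members and gene lists were chosen with earlier results of these data known. Single values were compared with two-sided exact permutation tests. Bins and windows listed in at least 2 of the 4 libraries were tested genome-wide with edgeR 4.0.16 (TMM, quasi-likelihood test, Benjamini-Hochberg adjustment, FDR 0.01) and with DESeq2 1.42.0, in R 4.3.3, after both were tested on simulated data. The rest used Python 3.11.15, scipy 1.17.1, pandas 2.3.3 and numpy 2.4.6. The simulated data had a set spread between replicates and no listing limit, unlike these libraries. They thus do not show how well the tools do here. Genes came from GENCODE vM21 and sequence from GRCm38.

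The windows named were those listed in all libraries, the 2 highest by reads per library, the 4 with the highest minimum over the replicates of a state, and any called by edgeR. The bins named were those called, the fullest and emptiest of each library and the 2 at the ends. The alternatives were a minimum of 13 or 100 reads, thinning of reads to the smallest library, other totals and normalizations, a replicate block, other tested bins and windows, an FDR of 0.05, counting per usable fragment end, and each library left out in turn. Joining adjacent windows and counting per window with a usable end were chosen after seeing the data.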

Additional observations from a re-analysis of the deposited data

How the results depend on the processing

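Of 88 alternative values, 69 kept their sign or, for counts, stayed equal or close, 13 counts moved and 6 values reversed. Many of the 69 were counts of called bins or windows that stayed at 0, so their number is no measure of robustness. The share of the region, 3T3-L1-AD minus 3T3-L1-PRE, reversed to 1.58 points for reads and 1.99 points for windows when only cis signal outside 1 Mb of the viewpoint was counted. The log2 ratio of the region to the telomeric stretch reversed to 0.31 for windows and 0.28 for reads per usable fragment end, since fewer ends of the region were usable, and to 0.13 and 0.10 per window with a usable end, a unit chosen after seeing the data. Windows listed in both 3T3-L1-AD replicates moved from 14 to 4 at 13 or more reads and to 4 after thinning to the smallest library with the same minimum.

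Bins called by listed windows moved from 5 to 0 at 13 or more reads, 0 after thinning with that minimum, 2 with RLE, 1 with library totals, 0 with DESeq2, 8 with the replicate block and 0 with the bins of chromosome 7 alone. Of all bins tested these called 0.0%, 0.393%, 1.44%, 0.262%, 0.0437%, 3.28% and 0.0%. The median over all bins was -0.22 with TMM, -0.02 with RLE and 0.37 with library totals, and all 19 bins of the region were fitted lower in 3T3-L1-AD with each. Called 2-kb windows moved from 0 with edgeR to 78 with DESeq2 and to 22 when windows listed in both replicates of either state were tested, which is 12.4% beside 13.7% of all windows tested. This filter takes windows through the state in which they are listed, so its calls are no support for a difference. The cause of these changes was not tested.

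Leaving out each library once, the log2 ratio of listed windows lay between -2.95 and -1.41, the share of windows between -2.34 and -1.49, the share of reads between -1.29 and -1.06, the log2 ratio to the telomeric stretch between -0.30 and -0.22 for windows and between -0.40 and -0.22 for reads, and the bins called by listed windows between 1 and 4. Without 1 library, the lone one of its state is assumed to vary like the others. Joining adjacent windows, chosen after seeing the data, gave a log2 ratio of -2.03 between states and -0.33 between sides. The labels give replicates of the 2 states no more than the same number, and deviations of libraries with the same number correlated at 0.00425 for reads and 0.0668 for windows over 2286 bins, yet the replicate 2 libraries shared 103 of 122 low-count windows. Windows at or under the unlisted limit of 12 or 10 reads in 3T3-L1-PRE could not be compared.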
